A study of Mus musculus with 2 samples.

Results

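The cells described here were Helios-expressing thymocytes that also carried transcripts of Cd7, Lgals3 or Kit, in any combination. A cell was a member when it had at least 2 UMIs of Ikzf2, at least 1 UMI over Cd3d, Cd3e and Cd3g, no UMI of Rag1, Rag2, Arpp21, Cd79a or Lyz2, fewer than 5 UMIs over the cycling genes Mki67, Top2a, Birc5, Ube2c and Cdk1, no UMI of Tnfrsf9, and at least 3 UMIs over Cd7, Lgals3 and Kit. A UMI is 1 counted molecule. Of the 4249 cells assigned to hashtag rows 11, 13, 15 and 17, 658 met the Helios, CD3 and noncycling conditions, and 63 of these were members. The members lay in all 4 rows, with 6 in row 11, 33 in row 13, 10 in row 15 and 14 in row 17. The comparison cells were the other 595 gated noncycling cells, of which 267 had no UMI of Tnfrsf9 and 328 had at least 1.

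The study sorted stage 0 (TCRβ+, CD1dt+, CD24+, NK1.1-) and stage 3 (TCRβ+, CD1dt+, NK1.1+, CD24-, CD44+) invariant natural killer T (iNKT) cells from thymi of Ctrl mice and of Kidins220 T-KO mice, on a C57BL/6 background. In T-KO mice, floxed Kidins220 is deleted by a Cre under the proximal Lck promoter, which acts early in T cell development. The thymi of 4 mice were pooled for each genotype, the sort was run in parallel for 2 replicas, and all 8 populations were marked with hashtag antibodies and pooled for 1 droplet library read from the 5′ end. The age of the mice was given as a broad range over all experiments of the study and a narrower range for most of them, not for these thymi. Of 16179 barcodes, all of which the transcript and hashtag libraries shared, 12147 passed the filters on genes and mitochondrial UMIs, and 10007 were assigned to 1 of the rows 11 to 18. No source used here ties these rows to stages or genotypes, so the rows are given by number, no genotypes are compared, and the library counts as 1 pooled sample without a statistical test. Intervals are 95% intervals for counting error only, and amplified reads and pooled mice add variation that they do not cover.

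Ikzf2 encodes Helios, an Ikaros family transcription factor that thymocytes switch on after strong T cell receptor signals. Cd7 encodes an immunoglobulin family receptor of T cells, NK cells and innate lymphoid cells, Lgals3 the β-galactoside-binding lectin galectin-3, and Kit the receptor for stem cell factor, best known from progenitors and mast cells. Tnfrsf9 encodes the costimulatory receptor 4-1BB, which is induced by activation. Thymocytes that survive strong signals can take agonist-selected fates such as regulatory T cells, iNKT cells or precursors of intraepithelial lymphocytes of the gut, which are marked by integrins that lead cells to the gut wall and hold them there. Maturing thymocytes in general gain Klf2, S1pr1, Bcl2 and MHC class I and lose CD24.

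The members held 6.25% of the gated noncycling cells of row 11, 11.7% in row 13, 7.09% in row 15 and 10.1% in row 17. Their share over the 4 rows was 9.57% (Clopper-Pearson interval 7.44 to 12.1%). The counting intervals of the 4 rows overlapped. Only row 13 held more than 20 members, and it supplied the most members to the pooled values. Members had a median of 3973 UMIs and 1950 genes per cell, the comparison cells 4340 UMIs and 2066 genes, so over all rows the members were not the deeper cells. By row, members were deeper in row 11 (4453.5 against 3610 UMIs) and row 17 (4330.5 against 4266 UMIs) and shallower in rows 13 and 15. The 267 cells without a Tnfrsf9 UMI were shallower, at 3518 UMIs, and the 328 cells with one were deeper, at 5286 UMIs. After each cell was thinned to 2000 UMIs, the median number of genes was 1191.5 in 60 members and 1173 in 559 comparison cells.

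The members were chosen by their UMI counts of the 3 gate genes, so these values describe the choice. Cd7 gave 315 of the 512 gate UMIs, Lgals3 124 and Kit 73. A UMI of Cd7 was present in 52 members, of Lgals3 in 46 and of Kit in 35. All 3 genes were seen together in 18 members, Cd7 with Lgals3 in 19 and Cd7 with Kit in 10. Single-gene members were few, namely 5 with Cd7, 4 with Lgals3 and 2 with Kit. The gate sum had a median of 6 and reached 27 UMIs. Just inside the limit, 11 cells had a sum of 3 (12 UMIs of Cd7, 12 of Lgals3 and 9 of Kit), and just outside it 22 cells without Tnfrsf9 had a sum of 2 (16, 13 and 15 UMIs).

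The gate genes were spread over the rows. Cd7 was at 1074, 1417, 1662 and 677 CPM (counts of a gene per 1000000 gene UMIs) in the members of rows 11, 13, 15 and 17, against 170.4, 179, 254 and 175 CPM in the comparison cells. Lgals3 was at 630 (row 11), 512 (row 13), 358 (row 15) and 446 CPM (row 17), against 33.6, 34.7, 91.7 and 55.1 CPM. Kit was at 185, 248, 332 and 369 CPM in the same order, against 41.3, 34.7, 59.7 and 63.5 CPM. At 2000 UMIs per cell, Lgals3 was seen in 56.7% of members (73.0% unthinned), in 7.33% of the comparison cells and in 7.82% of the Cd79a-positive cells of these rows, so the comparison cells did not exceed the share in B lineage cells. Cd7 was seen in 73.3% of members, 16.1% of the comparison cells and 3.55% of Cd79a-positive cells.

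**Figure D1:**
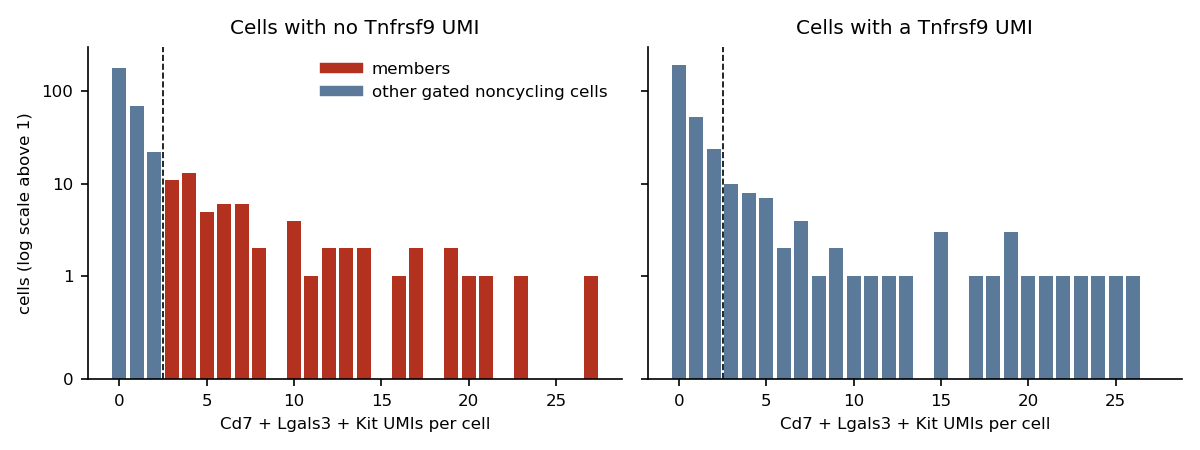
Number of gated noncycling cells (log scale above 1) at each sum of Cd7, Lgals3 and Kit UMIs, for cells without and with a Tnfrsf9 UMI. Red bars are the 63 members, blue bars the comparison cells, and the dashed line is the limit of 3 UMIs. A long tail up to 27 UMIs is present on both sides.

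The tail was not limited to cells without Tnfrsf9. A gate sum of at least 3 was found in 63 of 330 cells without a Tnfrsf9 UMI (19.1%, 15 to 23.8%) and in 57 of 328 cells with one (17.4%, 13.4 to 21.9%). By row, the shares without and with Tnfrsf9 were 10.2% and 16.2% in row 11, 23.2% and 13.5% in row 13, 16.1% and 25.3% in row 15, and 20.9% and 16.9% in row 17. The order of the 2 shares thus differed between rows, and the intervals overlapped in every row.

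Hdac9, a class IIa histone deacetylase named as a marker of these cells but not used by the gate, was at 133 CPM in members and 57.6 CPM in the comparison cells, a 2.31-fold difference (1.55 to 3.34). It was higher in members in row 13 (144 against 37.0 CPM), row 15 (153 against 82.0 CPM) and row 17 (138 against 81.9 CPM), and not in row 11 (37.0 against 43.9 CPM). Without row 13 its log2 ratio of 1.08 became 0.66. Its excess was larger against the Tnfrsf9-positive cells (44.7 CPM) than against the Tnfrsf9-negative ones (81.3 CPM). Hdac9 came from 21 members. Among cells without Tnfrsf9, it was at 165 CPM at a gate sum of 2, 192 CPM at 3 to 4 and 102 CPM at 5 or more, with overlapping intervals. It thus did not separate members from the cells just outside the limit, nor rise steadily with the gate sum. It was named as a marker with earlier results of these data known, so its excess is not independent support.

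The label of stage 0 iNKT cells was set against its defining genes. No UMI of the Trav11 family, which encodes the invariant α chain of mouse iNKT cells, was found among 225 TRAV UMIs of members, which allows a share of up to 1.33% as 3 counts of the total (Clopper-Pearson upper bound 1.63%). In the comparison cells 5 of 2205 TRAV UMIs were of this family, and in all assigned cells of rows 12, 14, 16 and 18 it was 1267 of 4374 (29.0%). Zbtb16, which encodes the iNKT lineage factor PLZF, had 0 UMIs in members and was at 7.66 CPM in the comparison cells, below the 11.7 CPM of 3 UMIs in members, so no difference was detectable at this depth. Klrb1c, which encodes NK1.1, a marker that the stage 0 sort leaves out, had 1 UMI in 63 members. Cd24a, the gene of the sort marker CD24, was seen in 17 of 63 members. The Trav11 counts do not bear out the iNKT part of the label, and the cells are called Cd7 Lgals3 Kit cells below. The paper itself found B cells, myeloid cells and thymocytes with both or neither of CD4 and CD8 in its first clustering, and removed them. For such thymocytes it proposes a poor CD1dt stain in that sort as a possible reason. Whether the members were among the removed cells was not tested.

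Other cell types that express a gate gene were checked through their markers. Of 7 NK and innate lymphoid genes tested, Fcer1g, Id2 and Nkg7 were at least 2-fold higher (against 2.93% of all genes tested). Xcl1 was lower (against 3.14%), Ncr1 was at 0, and the median log2 ratio was 0.58 against 0.03 for all genes. Without the gate genes, this list summed to 1039 CPM in members and 583 CPM in the comparison cells, and was higher in members in each row. Of 3 early progenitor genes tested, Lyl1 and Notch1 were at least 2-fold higher (against 2.93%) and none was lower (against 3.14%). The median log2 ratio was 1.02, and Hes1, Bcl11a, Hhex, Cd34, Ptcra and Erg were at 0. Without the gate genes, this list summed to 141 against 103 CPM, but was lower in members in row 11 (37.0 against 142 CPM). Mast cell and erythroid genes other than Kit (Gata1, Gata2, Cpa3, Fcer1a, Hba-a1, Hbb-bs, Klf1) were all at 0 in members. The myeloid and dendritic genes other than Lgals3 and Lyz2 summed to 348 CPM in members and 478 CPM in the comparison cells, but were higher in members in row 15 (614 against 335 CPM). Cst3 gave most of these UMIs, and Itgax, Xcr1, Clec9a, Csf1r and Spi1 were at 0 in members. The B cell genes other than Cd79a summed to 379 CPM in members and 437 CPM in the comparison cells, with Ebf1 and Pax5 at 0 and Cd74 giving the most UMIs. Their sum was higher in members in row 15 (358 against 279 CPM) and row 17 (354 against 323 CPM). For the γδ T cell genes, Tcrg-C4, a γ chain constant gene, was at 54.7 against 15.6 CPM, with 7 of its 14 UMIs in row 15 (179 CPM), 0 UMIs in row 11 and a log2 ratio of 1.33 that became 0.87 without row 15, Trdc was at 27.3 against 33.0 CPM, and Sox13, Maf, Cd163l1 and Trdv4 were at 0. The γδ list summed to 160.1 CPM in members and 91.2 CPM in the comparison cells, with 1 of 4 tested genes at least 2-fold higher (against 2.93% of all genes tested), none lower (against 3.14%), a median log2 ratio of 0.78 against 0.03 for all genes, and 384 CPM in row 15 against 0 in row 11. The log2 ratio of Trdc, -0.20, was 0.29 without row 13 and -0.88 without row 15. Coreceptor transcripts (Cd4, Cd8a or Cd8b1) were seen in 9 of 63 members (14.3%, 6.75 to 25.4%), in 22.0% of the comparison cells and in 80.8% of the cells with Rag1, Rag2 or Arpp21, which were deeper with a median of 15591 UMIs. The share in Cd79a-positive cells, at a median of 6248.5 UMIs, was 5.87% (3.83 to 8.54%), and this interval overlapped that of members.

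Kidins220, the gene deleted in T-KO mice, had 9 UMIs in members, in row 13 (48.0 CPM) and row 17 (46.1 CPM), and none in rows 11 and 15, where 3 UMIs would have been 111 and 76.7 CPM. The comparison cells had 18.1, 28.5, 20.8 and 21.7 CPM in rows 11, 13, 15 and 17. At this depth the members do not show which rows lack the transcript.

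Over the whole transcriptome, 7195 genes reached 20 CPM in either group. On the scale of log2(CPM + 10), 211 of them (2.93%) were at least 2-fold higher in members than in the comparison cells with the same direction in row 13, the one row with at least 20 members, and 226 (3.14%) were at least 2-fold lower. With the direction required in all 4 rows, 126 genes were higher (1.75%) and 180 lower (2.5%). The median log2 ratio of all genes tested was 0.03. Of the lower genes, 192 had fewer than 10 UMIs over all members and 13 had none, against 41 and 0 of the higher genes, so the lower list rests on thinner counts.

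**Figure D2:**
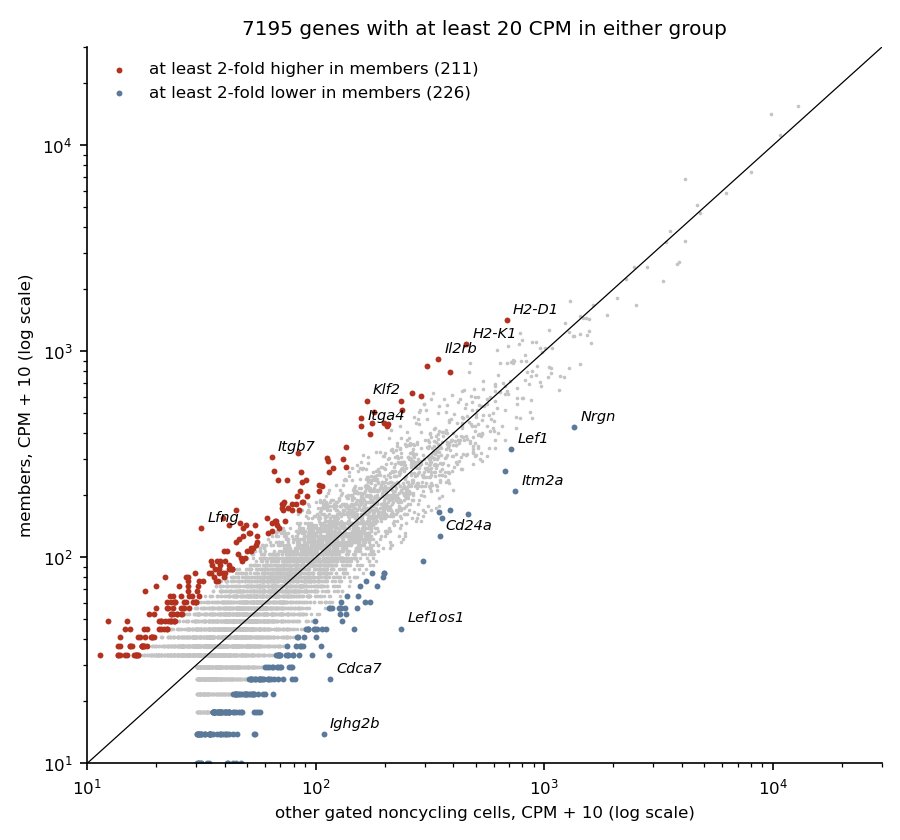
Level of each of 7195 genes in 63 members against 595 comparison cells, as CPM + 10 on log scales, without the genes of the gate. Red and blue points are the 211 higher and 226 lower genes, the line marks equal levels, and the blue points lie mostly at low member counts, apart from genes such as Nrgn, Itm2a and Lef1.

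Itgb7, which encodes the β7 integrin chain, had the highest ratio on the log2(CPM + 10) scale among the genes outside the gate (2.26). It was at 333, 256, 205 and 415 CPM in the members of rows 11, 13, 15 and 17 and at 33.6, 50.8, 52.8 and 76.9 CPM in the comparison cells. The members of every row were above the comparison cells of every row, and the pooled levels of 297 and 54.3 CPM differed 5.47-fold (4.11 to 7.22). Itga4, the α4 chain that pairs with β7 in the receptor for the gut addressin MAdCAM-1, was at 185, 472, 511 and 369 CPM in members and at 82.6, 169, 140.3 and 155 CPM in the comparison cells, 2.85-fold higher (2.29 to 3.52). Itgae, the αE chain that pairs with β7 to bind E-cadherin on epithelium, reached 35.1 CPM in members, but from 3 cells, and stood at 222 CPM in row 11, 24.0 CPM in row 13 and 0 in rows 15 and 17. Without row 11 its log2 ratio of 1.56 became 0.74. At 2000 UMIs per cell, Itgb7 was seen in 45.0% of members (32.1 to 58.4%) and 8.94% of the comparison cells, and Itga4 in 50% and 20.9%. In Cd79a-positive cells, a lineage that also uses these integrins, the shares were 14.5% and 34.1%. Of 10 integrin genes tested, these 3 were at least 2-fold higher (against 2.93% of all genes tested) and none was lower (against 3.14% of all genes tested), and the median log2 ratio was 0.25 against 0.03 for all genes.

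Rasgrp2, an activator of Rap1 in integrin signalling, was at 148, 344, 102 and 215 CPM in the 4 rows of members and at 41.3, 48.5, 62.5 and 73.5 CPM in the comparison cells (4.54-fold, 3.35 to 6.08). Row 13 held 43 of its 65 UMIs, and without that row its log2 ratio of 2.00 became 1.31. Prex1, an exchange factor for Rac, was at 444, 336, 256 and 246 CPM against 54.2, 82.4, 68.1 and 73.5 CPM, and was seen in 44 of 63 members. Rasa3, a GTPase-activating protein for Ras and Rap1, was at 226 against 64.9 CPM, and the actin regulator Coro2a at 144 against 29.3 CPM, the latter mainly from row 13 (200.1 CPM), without which its log2 ratio of 1.97 became 1.11. The large scaffold protein gene Ahnak was at 133 against 32 CPM, the polarity gene Llgl2 at 62.5 against 9.99 CPM, and Sytl1, a Rab27 effector in vesicle release, at 70.3 against 12 CPM. All of these had a higher level than the comparison cells in every row, but in row 11 the levels of Coro2a, Llgl2 and Sytl1 (37.0 CPM each) were 1 UMI, below the 111 CPM of 3 UMIs there, and so was that of Llgl2 in row 15 (25.6 CPM, 1 UMI, below 76.7 CPM).

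Lfng, the fringe glycosyltransferase that modifies Notch receptors, was at 111, 120.1, 230.1 and 92.3 CPM in members and at 5.16, 23.1, 23.6 and 26.7 CPM in the comparison cells, 5.95-fold higher (3.79 to 9.19). The kinase gene Pim2, a survival factor downstream of cytokines, was at 160.1 against 34.6 CPM, and Samhd1, which encodes a deoxynucleotide triphosphate hydrolase, at 226 against 58.3 CPM. Morc1 had 10 UMIs in 5 members and Tha1 10 UMIs in 9 members, so their ratios of 16.8-fold (5.76 to 51.9) and 7.82-fold (3.14 to 18.6) are loosely bounded. Row 17 held 6 of the Morc1 UMIs, and without it the log2 ratio of 1.99 became 1.31. Slc17a9, a vesicular nucleotide transporter, was at 58.6 against 7.99 CPM and was the one of the 15 leading genes not higher in all 4 rows, with 0 UMIs in row 11. Row 13 held 12 of its 15 UMIs, and without that row its log2 ratio of 1.93 became 0.95, below the 2-fold limit.

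Of 12 genes of late thymocyte maturation tested, 7 were at least 2-fold higher (Bcl2, H2-D1, H2-K1, Klf2, Ms4a4b, Ms4a6b, S1pr1; against 2.93% of all genes tested), none was lower, and the median log2 ratio was 1.13, against 0.03 for all genes. Klf2, the factor that switches on thymic egress genes, was at 556, 640.3, 537 and 446 CPM in the members of rows 11, 13, 15 and 17 and at 132, 166, 140.3 and 175 CPM in the comparison cells (3.60-fold, 2.97 to 4.35), and 51 of 63 members had a UMI. S1pr1, the egress receptor, was at 66.4 against 21.0 CPM, with 12 of 17 UMIs from row 13 and a log2 ratio of 1.30 that became 0.66 without it. Bcl2, which protects from apoptosis, was at 370.4, 352, 588 and 338 CPM in members and at 114, 142, 182 and 216 CPM in the comparison cells (2.38-fold, 1.90 to 2.96). The MHC class I gene H2-K1 was at 1000, 1185, 1509 and 615 CPM against 519, 419.9, 464 and 429 CPM, and H2-D1 was at 1409.8 against 675 CPM, where reads shared by these similar genes could be split either way. The log2 ratio of H2-D1, 1.05, fell just under the limit without row 13 (0.97) or row 15 (0.98). Ms4a4b differed between rows, from 926 CPM in the 6 members of row 11 to 61.5 CPM in row 17, where the comparison cells were at 100.3 CPM.

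Of the genes linked to precursors of intraepithelial lymphocytes, 4 of 9 tested were at least 2-fold higher (Il2rb, Itga4, Itgae, Itgb7) and Xcl1 was lower, against 2.93% and 3.14% of all genes. The median log2 ratio of the list was 0.66, against 0.03. Itga4, Itgae and Itgb7 are the integrin genes already counted above. Il2rb was also the only higher gene of 3 regulatory T cell genes tested (against 2.93%), with none lower (against 3.14%). That list had a median of 0.53 and summed to 1113 against 528 CPM. Of 6 iNKT genes tested, Il2rb alone was higher (against 2.93%) and none lower (against 3.14%), with a median of -0.04. Il2rb, the β chain of the receptors for interleukin-2 and interleukin-15, was at 889, 912, 1202 and 738 CPM in members and at 287, 343, 396 and 272 CPM in the comparison cells (2.72-fold, 2.35 to 3.14), and no row of the comparison cells reached a row of members. Cd160, a receptor of intraepithelial and NK cells, was at 348 against 216 CPM, below the 2-fold limit and lower in row 11. Within the comparison group, it was at 150.3 CPM in the Tnfrsf9-negative and 251 CPM in the Tnfrsf9-positive cells. Xcl1, a chemokine gene, was at 70.3 against 186 CPM, but 30.2 CPM in Tnfrsf9-negative comparison cells and 271 CPM in Tnfrsf9-positive ones, so the members lay between them. It was higher in members in row 11 (259 against 222 CPM) and row 17 (92.3 against 56.8 CPM), and its log2 ratio of -1.29 became -0.50 without row 13. Nkg7, a gene of cytotoxic granules, was at 444, 600.3, 435 and 231 CPM in members and at 225, 136, 124 and 154 CPM in the comparison cells. It was the one higher gene among the 5 tested of 14 cytotoxic and cytokine genes (against 2.93% of all genes tested), where Ccl4 and Xcl1 were lower (against 3.14%) and the median log2 ratio was -0.53. The summed level of the 14 went the other way, at 683 against 486 CPM, with Nkg7 the most abundant, and 7 of them (Gzmb, Ifng, Il4, Il17a, Il2, Ccl3, Ccl4) were at 0 in members. Runx3, a factor of cytotoxic lineages, was at 109 against 34.6 CPM and lower than the comparison cells in row 15, with a log2 ratio of 1.42 that became 0.83 without row 13. Ahr, the ligand-activated aryl hydrocarbon receptor, was at 70.3 against 17.6 CPM and higher in all 4 rows. Runx3 and Ahr are in none of the lists and were picked by hand. Fcer1g, a signalling adaptor of NK cells, reached 164 CPM through row 11 (926 CPM) and had 0 UMIs in row 15. Its log2 ratio of 1.29 became 0.33 without row 11.

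**Figure D3:**
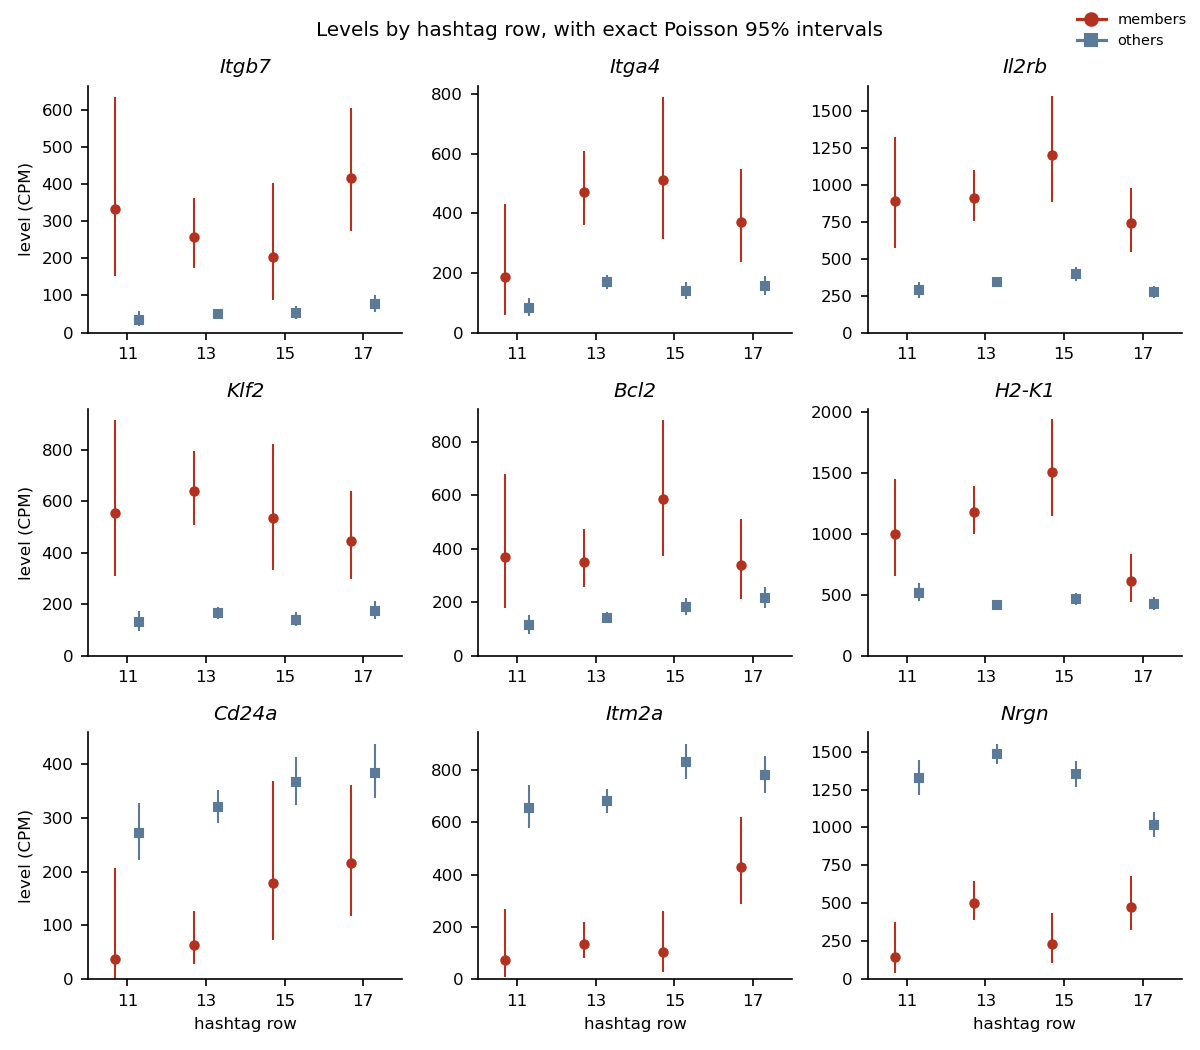
Levels (CPM) of 9 genes in members (red circles) and comparison cells (blue squares) of each hashtag row, with exact Poisson 95% intervals. In every row members lie above for Itgb7, Itga4, Il2rb, Klf2, Bcl2 and H2-K1 and below for Cd24a, Itm2a and Nrgn, and the intervals of the rows with few members (6 in row 11, 10 in row 15) are wide.

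Galectin, S100 and annexin genes other than Lgals3 leaned upward, with 3 of 11 at least 2-fold higher (Anxa2, Anxa6, S100a6; against 2.93% of all genes tested), none lower and a median log2 ratio of 0.48 against 0.03 for all genes. Anxa2, a calcium-dependent membrane-binding protein gene, was at 562 against 225 CPM, and S100a6, a calcium-binding protein gene, at 141 against 56.9 CPM, each higher in all 4 rows. Vim, the intermediate filament gene of motile lymphocytes, was at 1296, 832, 409 and 907 CPM against 346, 280.4, 340.4 and 252 CPM, with row 15 nearest to its comparison cells. Of 13 genes of the KIT receptor pathway other than Kit, 2 were higher (against 2.93% of all genes tested), Pik3cd and Pik3r1, the catalytic p110δ and regulatory p85α subunits of phosphoinositide 3-kinase, at 289 against 122 CPM and 164 against 65.6 CPM, the former with a log2 ratio of 1.18 that became 0.95 without row 17. The median of that list was 0.08.

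Lef1os1 was among the lowest ratios on the log2(CPM + 10) scale (-2.39), at 37.0, 40, 25.6 and 30.8 CPM in the members of rows 11, 13, 15 and 17 against 307, 231, 256 and 127 CPM in the comparison cells, 6.43-fold lower (3.37 to 14.1). Lef1os1 lies antisense to Lef1, whose product is a factor of early T cell stages, and Lef1 itself was at 324 against 708 CPM (2.18-fold lower, 1.75 to 2.75). The strand setting of the counting was not given in the sources used here, so the reads of the pair may not be fully separated. Cdca7, a gene active in proliferating cells, was at 15.6 against 105 CPM. Acsl3, Camk2g, Dbr1, Hmgn3 and Lad1 had no UMI in members. With members set at a floor of 3 UMIs (11.7 CPM), they were 2.98-fold, 2.67-fold, 3.18-fold, 2.64-fold and 2.87-fold lower. The lower ends of their exact counting intervals were 2.38-fold, 2.13-fold, 2.55-fold, 2.11-fold and 2.29-fold in the same order. In the Tnfrsf9-negative comparison cells alone they were at 27.4, 28.4, 31.2, 20.8 and 6.62 CPM, so Lad1 was below that floor there. Taf9, a subunit of the general transcription factor TFIID, and Ung, which encodes uracil-DNA glycosylase, had 1 UMI each in members, against 44.3 and 43.6 CPM in the comparison cells, and the log2 ratio of Taf9 moved from -1.96 to -2.58 without row 13. Some of these ratios fell below the 2-fold limit under other settings. Camk2g moved from -2.05 to -0.36 with 1 UMI of Ikzf2 required. After thinning to 2000 UMIs before the gate, Taf9 was at -0.76 and Ung at -0.25. Ighg2b had the lowest ratio on the log2(CPM + 10) scale, but 278 of its 296 UMIs in the comparison cells came from 1 cell, and its log2 ratio of -2.96 became 0.10 without row 13.

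Among better covered genes, Itm2a, a membrane protein gene induced in selected thymocytes, was at 74.1, 136, 102 and 431 CPM in members and at 656, 681, 831 and 780.4 CPM in the comparison cells (3.68-fold lower, 2.79 to 4.96), and its log2 ratio of -1.83 became -2.49 without row 17. Nrgn, which encodes the calmodulin-binding protein neurogranin, was at 148, 504, 230.1 and 477 CPM against 1327, 1483, 1351 and 1018 CPM (3.20-fold lower, 2.64 to 3.92). Cd24a was at 37.0, 64.0, 179 and 215 CPM against 271, 320.5, 367 and 384 CPM (2.88-fold lower, 2.01 to 4.30). For these 3 genes no row of members reached any row of the comparison cells, and at 2000 UMIs per cell a UMI of Itm2a was seen in 25% of members and 54.7% of the comparison cells.

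Of 14 genes of strong T cell receptor signals tested, 3 were at least 2-fold lower (Gadd45b, Itm2a, Nfkbid; against 3.14% of all genes tested), none was higher, 10 ratios were below 0 and the median log2 ratio was -0.53 against 0.03 for all genes. Without the gate genes, the list summed to 2738 CPM in members and 3817 CPM in the comparison cells and was lower in members in each row, with row 17 nearest (3552 against 3775 CPM). The rule kept Tnfrsf9, induced by activation, out of the members but not out of the comparison cells, 328 of which had it. Lower activation genes may in part describe that choice, which was not tested. Itm2a was at 431 CPM in the Tnfrsf9-negative and 898 CPM in the Tnfrsf9-positive comparison cells. Its log2 ratio of -1.83 became -1.08 against the Tnfrsf9-negative cells alone. Nr4a1, an immediate early target of the receptor, was at 594 CPM in members and 567 CPM in the comparison cells (1.05-fold, 0.88 to 1.24), although it was seen in 24 of 63 members (38.1%) and in 53.6% of the comparison cells. At 2000 UMIs per cell these shares were 30.0% (18.8 to 43.2%) and 40.3% (36.2 to 44.4%), with overlapping intervals. Pdcd1, the gene of the inhibitory receptor PD-1, was at 519 against 613 CPM, and Cd5, a negative regulator whose level follows signal strength, at 203 against 388 CPM, lower in all 4 rows and just short of the 2-fold limit. Within the comparison group, Cd5 went the other way from Itm2a, at 485 CPM in the Tnfrsf9-negative and 335 CPM in the Tnfrsf9-positive cells. Tox was at 348 against 464 CPM, Sox4 at 754 against 910.0 CPM, and Ikzf2 itself, which the gate required, at 1382 against 1454 CPM. Ikzf3, the gene of Aiolos, was at 355 against 381 CPM (0.932-fold, 0.745 to 1.15). Of 10 immediate early genes of the AP-1 group, Fos and Fosb were at least 2-fold higher (against 2.93% of all genes tested) and none lower, with Fos at 680.3 CPM in row 13 and below the comparison cells in row 11, and a log2 ratio of 1.34 that became 0.54 without row 13.

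Genes of glycolysis and DNA replication lay mostly below 0. None of 15 glycolysis genes was 2-fold higher or lower, a count near the background of 2.93% and 3.14% of all genes tested. Of their ratios 14 were below 0, with a median log2 ratio of -0.60, whereas over all 7195 genes 3481 ratios were below 0 and the median was 0.03, and Ldha was at 465 against 877 CPM, lower in all 4 rows. Of 10 S phase genes, 3 were at least 2-fold lower (Mcm3, Mcm5, Ung; against 3.14% of all genes tested), 9 ratios were below 0 and the median was -0.84, in cells that the gate had already limited to few mitotic transcripts. Of 10 NF-κB feedback genes, 3 were lower (Nfkb2, Relb, Traf1; against 3.14% of all genes tested) with a median of -0.41. Here too the comparison cells included Tnfrsf9-positive cells, which the rule kept out of the members. The summed level of these 10 genes went the other way, with 1101 CPM in members and 1019.5 CPM in the comparison cells, and was lower in members in row 17 alone. Within the comparison group, Ldha was at 1020.8 CPM in the Tnfrsf9-positive and 613 CPM in the Tnfrsf9-negative cells. The genes of the CD3 complex and proximal signalling other than the gated Cd3 genes had a median of 0.11, and none of 13 was at least 2-fold higher or lower, also near the background of 2.93% and 3.14%.

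**Figure D4:**
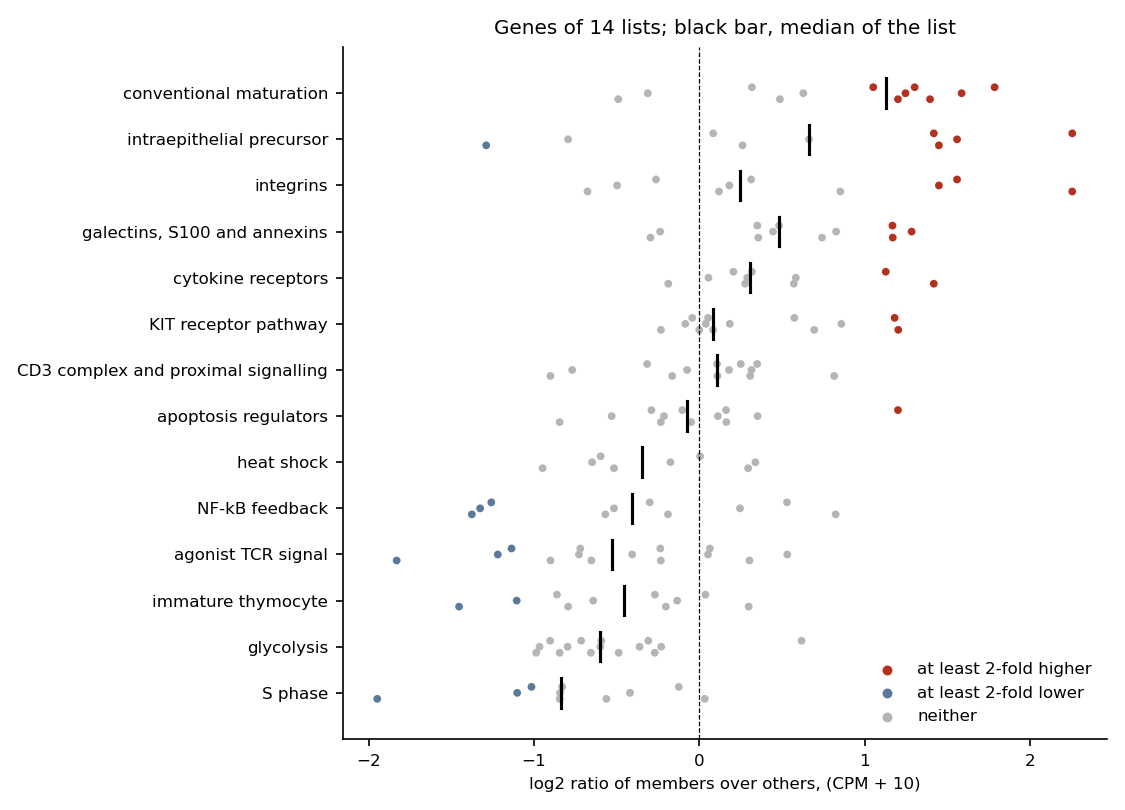
Log2 ratio of members over comparison cells, from CPM + 10, for the tested genes of 14 lists, without gate genes. Each point is a gene, red at least 2-fold higher, blue at least 2-fold lower, grey neither, and the black bar is the list's median, which runs from 1.13 for conventional maturation to -0.84 for S phase.

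The levels also differed along the gate sum among the 330 cells without Tnfrsf9, at sums of 0 (176 cells), 1 (69), 2 (22), 3 to 4 (24) and 5 or more (39). Itgb7 was at 45.5, 66.5, 65.9, 203 and 346 CPM in these bins, Il2rb at 269, 294, 560.1, 801 and 968 CPM, and Klf2 at 181, 241, 318, 338 and 687 CPM. Itm2a was at 489, 353, 242, 259 and 167 CPM. Il2rb and Itga4 (129, 196, 472, 395 and 436 CPM) were thus already high at a sum of 2, while Itgb7 and Bcl2 (169, 182, 165, 406 and 376 CPM) first stood higher at 3 to 4. Nrgn stood at 1203, 1084, 1274, 417 and 418 CPM and Cd24a at 267, 318, 318, 169 and 89.6 CPM, so both were lower from 3 UMIs on. Ikzf2 was at 1624, 1654, 1658, 1726 and 1200.5 CPM.

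The 57 Tnfrsf9-positive cells with a gate sum of at least 3 lay near the members for many of these genes. They had 231 CPM of Itgb7, 1088 CPM of Il2rb, 1161 CPM of H2-K1, 290.2 CPM of Bcl2 and 112 CPM of Cd24a. Klf2 stood at 326 CPM and Nrgn at 752 CPM, between the members and the cells with a low sum. Leaving these 57 cells out of the comparison group raised the count of higher genes from 211 to 257 and the count of lower genes from 226 to 235.

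**Figure D5:**
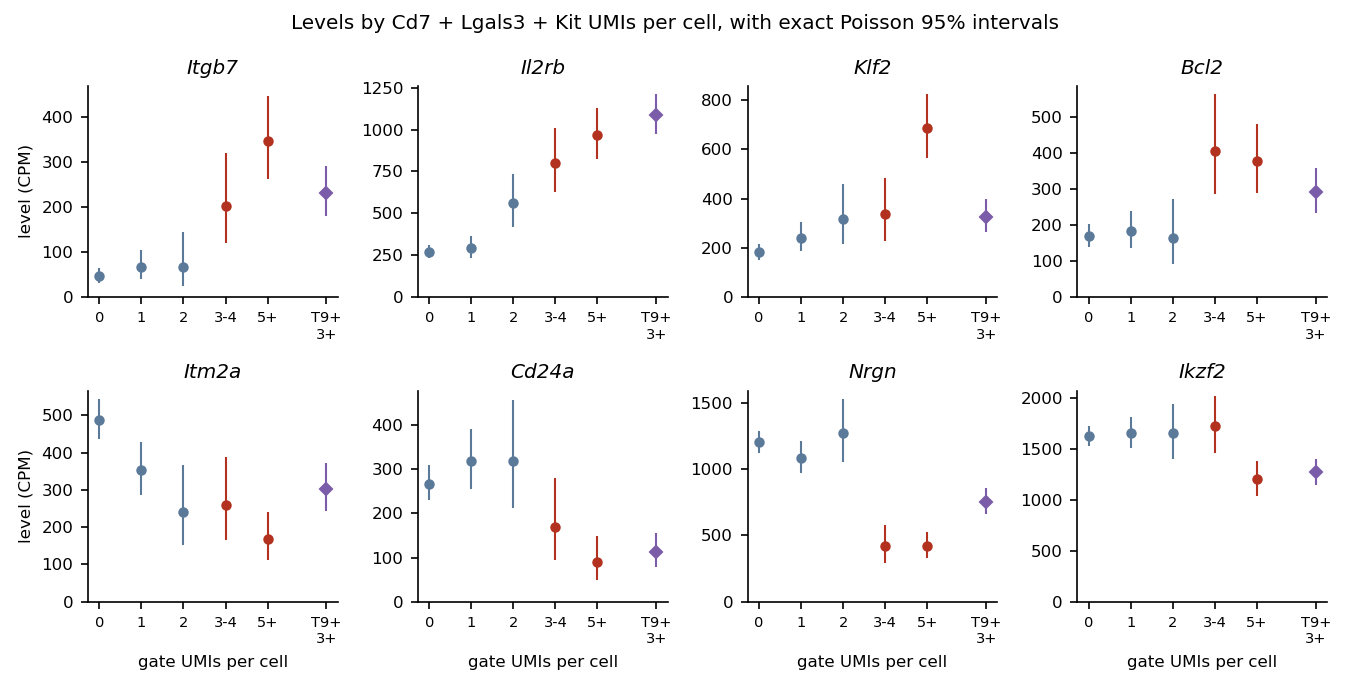
Levels (CPM) with exact Poisson 95% intervals by the sum of Cd7, Lgals3 and Kit UMIs per cell. Circles are cells without a Tnfrsf9 UMI (red, members; blue, comparison cells), and purple diamonds, marked T9+ 3+, are the 57 Tnfrsf9-positive cells with a sum of at least 3. Itgb7 goes from 45.5 CPM at a sum of 0 to 346 CPM at 5 or more, and Nrgn from 1203 to 418 CPM.

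Compared with the 267 Tnfrsf9-negative cells alone, Itgb7 (297 against 52.9 CPM), Il2rb (910 against 301 CPM), Klf2 (566 against 209 CPM) and H2-K1 (1070.0 against 383 CPM) were higher in members as well, and Itm2a (199 against 431 CPM), Nrgn (418 against 1177 CPM) and Cd24a (117 against 285 CPM) lower. Lad1 shows the opposite case, with 6.62 CPM in the Tnfrsf9-negative and 48.3 CPM in the Tnfrsf9-positive cells. The former is below the 11.7 CPM of 3 UMIs in members, so no difference from the Tnfrsf9-negative cells was detectable. Against the Tnfrsf9-negative cells, 186 genes were higher and 221 lower. Only 136 of the 211 reported higher genes and 137 of the 226 reported lower genes were shared with these.

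The T cell receptor β genes of the members were diverse. Of 35 TRBV segments, Trbv12-1 was seen in 15 of 63 members (23.8%) and 60 of 595 comparison cells (10.1%), Trbv17 in 8 members (12.7%) and 4.03% of the comparison cells, and Trbv13-2 in 14 members (22.2%) and 26.7%. Trbv12-1 and Trbv12-2 are similar in sequence, and reads could be split between them. Trbv1 made up 13.7% of the TRBV UMIs of members from 6 cells, so shares of UMIs rest on few cells.

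In the GRCm38 annotation, Cd7 lies on the reverse strand at chr11:121036747-121039418, Lgals3 on the forward strand at chr14:47367751-47386160 and Kit on the forward strand at chr5:75574916-75656722. Itgb7 lies at chr15:102215995-102231944 and Il2rb at chr15:78479256-78495271, both on the reverse strand, Itga4 at chr2:79255426-79333123 on the forward strand, and Ikzf2 at chr1:69531214-69687245 on the reverse strand.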

How the data were processed

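Transcripts and hashtags of 8 pooled populations were sequenced as 1 droplet library each. Per the labels and methods, the authors made the deposited counts (raw UMIs for each gene or hashtag in each barcode) with Cell Ranger 6.0.0 on mm10, and Seurat was used downstream. The strand setting was not given in the sources used here.

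Barcodes were kept from 1000 genes upward if mitochondrial UMIs made up 5% or less, and were assigned to the one hashtag row holding at least 80% of at least 10 UMIs on rows 11 to 18. This drops barcodes with a mixed hashtag signal, but unequal doublets between populations and doublets within one can remain. No doublet caller was run and free RNA was not removed. The 63 members held 256073 gene UMIs and the 595 comparison cells 3003434. Raw counts were summed per group and row and divided by the summed gene UMIs to give CPM. Ratios used a pseudocount of 10 CPM. A gene counted as higher or lower when it reached 20 CPM in either group, a 2-fold ratio, and the same direction in each row with at least 20 members. Leading genes were the 15 highest and 10 lowest ratios, without gate, ribosomal, Gm, mitochondrial and receptor segment genes, and genes of 35 lists were also named. Nrgn, Vim, Runx3, Ahr and Kidins220 met neither rule and were picked by hand. Folds and their intervals come from the counts without the pseudocount (exact binomial), levels have exact Poisson intervals and shares Clopper-Pearson intervals, all at 95%. Cells were thinned to 2000 UMIs for shares at equal depth. The ratio and thinning steps were tested on simulated data. Members, lists and genes were chosen with earlier results of these data known. Positions come from GENCODE M21 on GRCm38. Python 3.11.15, numpy 2.4.6, scipy 1.17.1, pandas 2.3.3 and matplotlib 3.10.9 were used.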

Additional observations from a re-analysis of the deposited data

Results flagged for a closer look

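Cells outside the 4 rows also passed the member rule, since 43 cells of hashtag rows 12, 14, 16 and 18 met it, among 81 gated noncycling and 5758 assigned cells there. These 43 cells had 1427 CPM of Cd7, a gate gene, and 336 CPM of Itgb7, near the 1230.1 and 297 CPM of the members. All 5758 assigned cells of these rows were already at 1174 CPM of Cd7 and 304 CPM of Itgb7, so this nearness is not particular to the 43 cells. Lgals3, also a gate gene, was at 143 CPM in the 43 cells and 484 CPM in the members. The 43 cells had 0 UMIs of Kit and Hdac9, 33.1 CPM of Nr4a1, 33.1 CPM of Itga4 and 22.0 CPM of Cd24a, all below the members. Klrb1c was at 424 CPM, Zbtb16 at 82.6 CPM, Tbx21 at 110.2 CPM and Cd44 at 176 CPM, all above the members, and Ikzf2 at 501 CPM was below their 1382 CPM. Their difference from the members was not tested.

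Among hashtag rows outside 11 to 18, rows 1 and 4 carried UMIs above the others, with 12255 UMIs on row 1 and 11854 on row 4. The other 10 unused rows held 12 to 599 UMIs. The UMIs of row 1 were spread over 3815 barcodes, with at most 74 in 1 barcode, and those of row 4 over 3251 barcodes, with at most 53.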

How the results depend on the processing

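Over 37 genes and 25 alternatives, 858 of 925 log2 ratios stayed inside the counting interval of the reported value, 66 moved out of it in the same direction, and 1 reversed, namely Ighg2b at 0.10 without row 13. With 1 row left out Ighg2b ran from -3.79 to 0.10, and over all alternatives from -4.34 to 0.10. The share of members (9.57%) moved to 12.9% with a gate sum of at least 2, 5.93% with at least 5, 6.69% without Lgals3 in the gate and 6.08% without Cd7, and was 53.1% in rows 12, 14, 16 and 18, and 8.0% to 10.3% with 1 row left out. The counts of higher and lower genes (211 and 226) became 416 and 439 with a pseudocount of 1 CPM, 32 and 17 with 50 CPM, and 856 and 827 at 1.5-fold. They were 396 and 574 after thinning to 2000 UMIs before the gate and 394 and 545 when thinned after the gate. The higher and lower counts were 148 and 133 with a gate sum of at least 2, 305 and 397 with at least 5, and 262 and 352 without Cd7 in the gate. They were 246 and 115 with 1 UMI of Ikzf2, 252 and 342 without ribosomal and Gm genes in the total, and 148 and 575 with the rows weighted equally. Since rows with at least 20 members set the direction rule, some of these settings also changed it, to 2 rows with a gate sum of at least 2 or 1 UMI of Ikzf2 and to 0 rows without Cd7, in place of 1 row. With 1 UMI of Ikzf2, 104 of the higher and 80 of the lower genes were shared with the reported ones. The higher count was 126 with the direction held in all 4 rows, a setting chosen after seeing the data. With 1 row left out, the counts ran from 247 to 393 higher and 242 to 446 lower. The 393 and 446 were without row 13, where no row held 20 members and no direction was required, and 130 of the higher and 153 of the lower genes were shared with the reported ones. The cause of the other moves was not tested. No paired test was run, since no label names a row as a replicate, and the equal weighting of the rows is the comparison made within them. Depth limits the lower genes most, since 3 UMIs over all members are 11.7 CPM, and 192 of 226 had fewer than 10 UMIs there.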
